A study of Mus musculus with 10 samples.

Results

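Genes of sterol and fatty acid synthesis were followed across 7 groups of mouse macrophages. The list named 30 genes, taken by the gene symbol of the array's annotation, and each gene was represented by its brightest probe by the mean of the authors' values over all 10 arrays. Of the 30 genes, 29 were on the array and 26 were tested. Acat2, a cytosolic thiolase at the start of the pathway, was not analysed here. Idi1, Fdft1 and Srebf1 were not above background on any array. The sterol arm held 18 listed enzymes, of which 15 were tested, and was split into the mevalonate segment and the segment from squalene to cholesterol. The fatty acid arm held 8 genes, of which 8 were tested, and 3 of 4 control and transport genes were tested.

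The groups were alveolar macrophages of the lung, bone marrow-derived macrophages (BMDM), small intestinal macrophages, adipose tissue macrophages, peritoneal macrophages, Kupffer cells of the liver and splenic red pulp macrophages. Per the labels, all mice were male C57BL/6, an inbred strain, 8 to 10 weeks old, and the cells were untreated. The BMDM came from a 7 day culture of marrow cells in M-CSF, a macrophage growth factor, and are the only cultured group. Intestinal, adipose and peritoneal macrophages had 2 arrays each, and the other 4 groups had 1 array each and were assumed to vary like the 3 groups with 2. Nothing in the labels tells whether paired arrays hold RNA of different mice. The p-values therefore reflect only array-to-array spread, possibly technical, and the number of arrays limits the precision.

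Cholesterol is built from acetyl-CoA through mevalonate, the isoprenoid farnesyl diphosphate, squalene and lanosterol. Fatty acids are built from the same acetyl-CoA through malonyl-CoA, and are then lengthened by elongases and given double bonds by desaturases. The transcription factor SREBP2, encoded by Srebf2, drives sterol genes when membrane cholesterol is low, whereas SREBP1, encoded by Srebf1, and the sterol-sensing LXR receptors drive fatty acid genes, and INSIG proteins hold the SREBPs in the endoplasmic reticulum when sterol is plentiful.

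Promoter letters were read for the listed genes that had a window. SREBPs act together with NF-Y, which binds CCAAT, and Sp1, which binds GGGCGG, so the 250 bases before each annotated start were read from RefSeq (GRCm38.p6) for the 23 listed genes with a window and searched on both strands. The 15 sterol arm genes with a window included Acat2 and Idi1, which were not tested, and lacked Sqle, Fdps and Fdft1. The 5 fatty acid genes lacked Fads1, Scd1 and Scd2, and the control and transport genes lacked Stard4. For Acaca the bases read end at chr11:84195437, inside the gene, which starts at 84129635. The bases before that start were not read, and Acaca counts below as a gene without CCAAT or GGGCGG. The arms were not tested against each other. CCAAT was present in 14 of 15 sterol arm genes, 1 of 5 fatty acid genes and 3 of 3 control and transport genes, against 40.2% of the 7484 array-tested genes with a window. GGGCGG was present in 14 of 15 sterol arm genes and 2 of 5 fatty acid genes, against 62.6% of those 7484 genes. The sterol regulatory element TCACNCCAC was found only before Hmgcs1 among the 23 genes, and in 1.14% of the 7484. The E-box CACGTG was found in 3 of 15 sterol arm and 0 of 5 fatty acid genes, against 10% of the 7484. Median base composition was 62.8% G and C in the sterol arm windows, 64.8% in the fatty acid windows and 59.4% in the array-tested windows. Genes with several annotated starts had a window for each, and a match in any of them was counted. A match is a description of letters, and no match says only that these letters are not in the window.

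Stretches before the start are shown 5′ to 3′ in the direction of the gene. The CCAAT box, which reads ATTGG on the other strand, and the sterol regulatory element are in capitals. Each stretch was cut around its matches, from 28 bases for Cyp51 to 220 for Hmgcs1. Genes without a match show the 108 bases before the start, so the arms cannot be compared by these stretches. Hmgcs1, Mvk, Msmo1, Cyp51 and Lss belong to the sterol arm and hold between 1 and 5 CCAAT matches. Acat2, the sterol arm gene with a window but no CCAAT, is not shown. Fasn is the fatty acid gene with matches, 2 of which overlap on opposite strands, and Elovl6 and Acly have none.
Hmgcs1, chr13:119690106-119690325, plus strand: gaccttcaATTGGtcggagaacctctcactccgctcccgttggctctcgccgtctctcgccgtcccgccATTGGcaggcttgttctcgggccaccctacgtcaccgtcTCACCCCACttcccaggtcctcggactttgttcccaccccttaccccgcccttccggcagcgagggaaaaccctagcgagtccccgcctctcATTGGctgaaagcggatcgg
Mvk, chr5:114444088-114444268, plus strand: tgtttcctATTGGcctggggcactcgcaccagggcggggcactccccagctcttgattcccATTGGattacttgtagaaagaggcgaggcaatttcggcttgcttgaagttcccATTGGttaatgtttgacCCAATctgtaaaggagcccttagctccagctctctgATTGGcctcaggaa
Msmo1, chr8:64733614-64733746, minus strand: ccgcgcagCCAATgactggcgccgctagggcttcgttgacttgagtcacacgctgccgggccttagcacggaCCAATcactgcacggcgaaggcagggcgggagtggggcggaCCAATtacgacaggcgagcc
Cyp51, chr5:4104707-4104734, minus strand: gtccgccaCCAATctggtcctgagatcc
Lss, chr10:76531535-76531562, plus strand: atgctctgATTGGccgagctcgcatcgg
Fasn, chr11:120824587-120824645, minus strand: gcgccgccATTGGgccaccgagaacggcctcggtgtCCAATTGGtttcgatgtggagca
Elovl6, chr3:129532278-129532385, plus strand: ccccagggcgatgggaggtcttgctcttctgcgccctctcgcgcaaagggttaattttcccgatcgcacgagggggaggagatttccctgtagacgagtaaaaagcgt
Acly, chr11:100528001-100528108, minus strand: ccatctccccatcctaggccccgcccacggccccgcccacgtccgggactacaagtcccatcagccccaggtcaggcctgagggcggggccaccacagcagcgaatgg

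Between 22.6% and 26.4% of probes were above background on an array. The 5 arrays with the lower median raw signals (89.83 to 107.9) were the alveolar, BMDM, Kupffer and splenic arrays and peritoneal array 1, and the other 5 had medians between 135.7 and 166.5. The intestinal and adipose groups therefore lay wholly in the brighter set, only the peritoneal group spanned both, and differences within each set are given beside the results. All 8 macrophage markers found on the array were above background on every array, Csf1r and Cd68 not being analysed here. Since each sample is bulk RNA, fewer cells of a type and less RNA per cell cannot be told apart. Levels below are log2 intensities after background correction and quantile normalization, and a gene is called not above background on an array where its detection p was 0.01 or more.

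The sterol arm was high in BMDM, high in part in alveolar and intestinal macrophages and low in the other groups, while the fatty acid arm differed gene by gene. Of the 26 tested genes, 25 passed the limma F test for any difference between groups at an adjusted p of 0.05, against 79.6% of the 12838 transcripts tested, and Sc5d, a sterol desaturase, did not reach the threshold (adjusted p = 0.177). Fads2 was tested only because BMDM detected it, Mvk because BMDM and adipose array 2 did, and Sc5d because adipose array 1 and peritoneal array 2 did. Counts over tested genes are therefore descriptions.

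**Figure D1:**
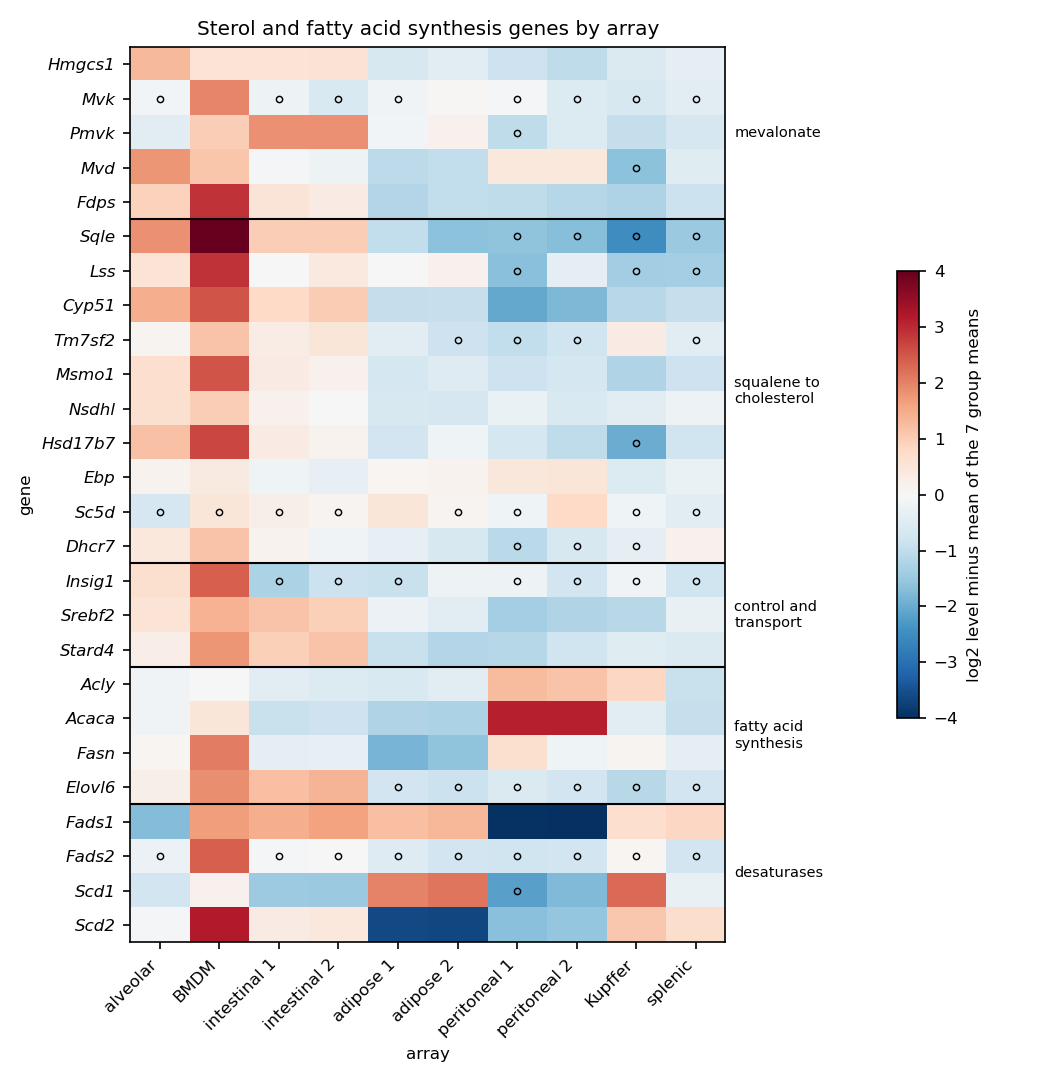
Colour gives each tested gene's log2 level on an array minus its mean over the 7 group means, with genes in rows by segment, arrays in columns and open circles where the gene was not above background. Sterol rows are mostly red in BMDM and alveolar and blue in peritoneal, Kupffer, splenic and adipose, whereas Acaca, Fads1, Scd1 and Scd2 each have a pattern of their own.

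Each group was set against the equally weighted mean of the other 6, and these comparisons share arrays. In BMDM 13 of 15 sterol arm genes were higher and 2 did not pass, with a median difference of 1.35 on the log2 scale, and 22.8% of all transcripts were higher and 29.7% lower. The 13 include Mvk, which was tested mainly through BMDM. In alveolar macrophages 8 were higher and 7 did not pass, with a median of 0.76, and 16.3% of transcripts were higher and 20% lower. Intestinal macrophages had 6 higher and 9 that did not pass, with a median of 0.28, where 24.8% of transcripts were higher and 22% lower. The share of sterol genes called higher thus stood well above the share of transcripts in BMDM and alveolar macrophages, and less so in intestinal macrophages.

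Of the same 15 genes, 9 were lower in adipose macrophages (median -0.63), beside 20.5% of transcripts lower and 22.2% higher. In peritoneal macrophages 11 were lower and 2 higher (median -1), beside 23.6% lower and 20.9% higher. Kupffer cells had 10 lower (median -1.1), beside 15.3% of transcripts lower and 14.4% higher, and splenic macrophages had 8 lower (median -0.58), beside 20.4% lower and 19.3% higher. The remaining sterol genes of the adipose, Kupffer and splenic comparisons did not pass. Medians over all transcripts lay between -0.12 and 0.01 in these comparisons. Median scaling moved them to between -0.54 (alveolar) and 0.72 (adipose). Under it 3 of the tested genes were higher in alveolar macrophages in place of 9, and 6 were lower in adipose macrophages in place of 16. The sterol median changed sign in adipose macrophages, to 0.16, as did the falls of Hmgcs1, Msmo1, Nsdhl, Dhcr7 and Acly there. Taken from the median of all transcripts under that scaling, the sterol arm median was 0.67 in alveolar, 1.34 in BMDM, -0.56 in adipose and -1 in Kupffer cells. This measure was chosen after seeing the data. It takes out the shift common to all transcripts, so it is no independent check on the change of sign.

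In the fatty acid arm 6 of 8 genes were higher in BMDM and 2 did not pass, with a median difference of 2.06. The 6 include Fads2, tested only through BMDM, and 22.8% of all transcripts were higher and 29.7% lower. In alveolar macrophages 2 were lower and 6 did not pass (median -0.17), beside 16.3% of transcripts higher and 20% lower. The count of 2 of 8 is near that lower share, and the difference between arm medians was 0.93. In Kupffer cells 4 were higher and 2 lower (median 0.46) while the sterol arm was low, and the sterol median minus the fatty acid median was -1.56. There 14.4% of transcripts were higher and 15.3% lower. Fatty acid genes were called in both directions in intestinal (3 higher, 3 lower, median -0.22), adipose (2 higher, 6 lower), peritoneal (2 higher, 5 lower) and splenic macrophages (2 higher, 4 lower). The lower genes in adipose, peritoneal and splenic macrophages include Fads2, tested only through BMDM, and Elovl6. Neither was above background in these groups, so these lower counts are descriptions. Elovl6 was at least 1.33-fold, 1.06-fold and 1.02-fold lower there, and Fads2 has no fold. Of all transcripts 24.8% were higher and 22% lower in intestinal and 22.2% and 20.5% in adipose macrophages. In peritoneal macrophages these shares were 20.9% and 23.6%, and in splenic macrophages 19.3% and 20.4%. Counts of 2 of 8 lie near these shares. The sterol and fatty acid medians were -0.63 and -0.85 in adipose, -1 and -0.84 in peritoneal and -0.58 and -0.68 in splenic macrophages. These medians use fitted levels below background. With such genes set to their bounds, or to 0 where no fold can be given, the sterol median was 0.76 in alveolar, 1.23 in BMDM, 0.16 in intestinal, -0.63 in adipose, -0.9 in peritoneal, -0.68 in Kupffer and -0.45 in splenic macrophages. The fatty acid median was then -0.12 in alveolar, 1.74 in BMDM, -0.2 in intestinal, -0.52 in adipose, -0.04 in peritoneal, 0.46 in Kupffer and -0.19 in splenic macrophages. The spread of the sterol median minus the fatty acid median between arrays of a group was 0.16 (pooled SD over 3 groups). No test was run on the arm medians. Within the array set of lower signal, against the mean of the other groups there, the sterol median was 0.75 in alveolar, 1.77 in BMDM, -0.99 in Kupffer, -0.72 in splenic and -1.05 in peritoneal macrophages. The fatty acid median there was -0.61 in alveolar, 2.18 in BMDM, 0.24 in Kupffer, -1 in splenic and -0.9 in peritoneal macrophages. Within the brighter set the sterol median was 0.91 in intestinal, -0.38 in adipose and -0.53 in peritoneal macrophages, and the fatty acid median was 0.64 in intestinal, -0.97 in adipose and -0.17 in peritoneal macrophages. The intestinal fatty acid median thus differed in sign between the 7-group comparison and the set.

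**Figure D2:**
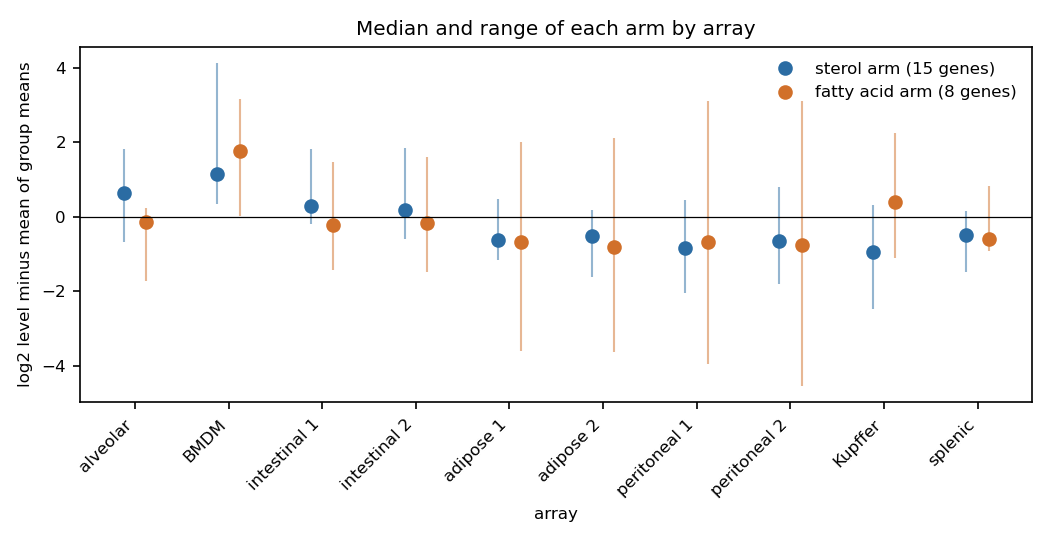
Points give the median over the genes of an arm of the log2 level minus the gene's mean over the 7 group means, per array, and lines give the lowest and highest gene. The fatty acid arm spans a wider range than the sterol arm on the peritoneal and adipose arrays, from -4.55 to 3.12.

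In the mevalonate segment 5 of 5 tested enzymes were higher in BMDM, beside 22.8% of all transcripts. Among the 5 is Mvk, which was tested mainly through BMDM. In alveolar macrophages 3 of 5 were higher, beside 16.3% of transcripts, but the enzymes of the segment did not peak in the same group. Hmgcs1, which makes HMG-CoA, had a log2 level of 12.64 in alveolar macrophages, against 11.88 in BMDM, 11.88 and 11.91 in intestinal, 10.7 and 10.87 in adipose, 10.51 and 10.3 in peritoneal, 10.74 in Kupffer and 10.94 in splenic macrophages. The alveolar array was thus above all others, and it exceeded the mean of the other 6 groups 2.89-fold (log2 difference 1.53 ± 0.17 SE, adjusted p = 0.0005241). Mvd, the decarboxylase that makes isopentenyl diphosphate, was also highest in alveolar macrophages. Its level was 8.98 in alveolar macrophages and 8.32 in BMDM, against 7.63 and 7.65 in peritoneal, 7.15 and 7.01 in intestinal, 6.71 in splenic, 6.15 and 6.22 in adipose macrophages, and it was not above background in Kupffer cells. Alveolar Mvd was at least 3.84-fold above the other groups (adjusted p = 9.142e-05).

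Pmvk, phosphomevalonate kinase, was an intestinal gene by level. Both intestinal arrays (9.08 and 9.1) were above BMDM (8.25), adipose (7.16 and 7.43), alveolar (6.79), splenic (6.59), Kupffer (6.32) and the peritoneal arrays (6.72 on array 2 and not above background on array 1). Intestinal macrophages exceeded the other groups 4.39-fold (log2 difference 2.13 ± 0.16, adjusted p = 6.899e-05). Alveolar Pmvk differed by -0.55 ± 0.22 and did not pass the test (adjusted p = 0.09018).

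Fdps, farnesyl diphosphate synthase, and Mvk, mevalonate kinase, were highest in BMDM. Fdps had 12.74 in BMDM, against 10.78 in alveolar, 10.38 and 10.17 in intestinal, and between 8.62 and 9 on the 6 other arrays. BMDM exceeded the other groups 10.3-fold (log2 difference 3.37 ± 0.17, adjusted p = 2.212e-05). Mvk was above background in BMDM (7.87) and on adipose array 2 (5.96) only, and BMDM was at least 3.36-fold above the other groups, a description since it was tested mainly through that group. The dimmer probe of Fdps, above background on 1 array, gave 1.53 for BMDM and -0.17 for alveolar macrophages, so the alveolar rise of Fdps (1.08 ± 0.17, adjusted p = 0.003051) rests on the brighter probe.

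From squalene onward 8 of 10 tested enzymes were higher in BMDM and 5 of 10 in alveolar macrophages, beside 22.8% and 16.3% of all transcripts. Sqle, the squalene epoxidase that takes the first oxygen-dependent step, had 11.78 in BMDM, against 9.47 in alveolar, 8.64 and 8.63 in intestinal and 6.65 and 6.01 in adipose macrophages. It was not above background on the peritoneal, Kupffer and splenic arrays. BMDM Sqle was at least 24.1-fold above the other groups (adjusted p = 1.954e-05). Alveolar Sqle was also higher (at least 3.73-fold, adjusted p = 0.0005539), as was intestinal Sqle by the brightest probe (at least 1.9-fold, adjusted p = 0.001991), although the next-brightest probe, above background on 1 array, gave -1.07 for intestinal macrophages.

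Cyp51, lanosterol demethylase, was above background on all 10 arrays. Its levels were 11.54 in BMDM, 10.45 in alveolar, 9.81 and 10.03 in intestinal, 8.07 and 8.08 in adipose, 8.1 in splenic, 7.91 in Kupffer and 6.95 and 7.21 in peritoneal macrophages. BMDM stood first and alveolar macrophages next by group mean for 7 of the 10 enzymes of this segment. BMDM were 7.71-fold above the other groups and peritoneal macrophages 4.76-fold below (log2 differences 2.95 ± 0.18 and -2.25 ± 0.13, adjusted p = 3.82e-05 and 1.918e-05). Msmo1, the sterol C4 oxidase, had 12.56 in BMDM and 10.7 in alveolar macrophages, with its lowest level, 8.83, in Kupffer cells, and was 7.67-fold above the other groups in BMDM (2.94 ± 0.17, adjusted p = 3.207e-05).

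Hsd17b7, the 3-ketosteroid reductase, had 10.26 in BMDM, against 8.78 in alveolar, 7.92 and 7.75 in intestinal and 6.59 to 7.43 in adipose, peritoneal and splenic macrophages, and it was not above background in Kupffer cells. It was at least 7.96-fold above the other groups in BMDM (adjusted p = 0.0001053). Lss, which closes squalene epoxide into lanosterol, had 9.34 in BMDM, against 7 in alveolar, 6.47 and 6.84 in intestinal and 6.46 and 6.63 in adipose macrophages (BMDM at least 7.89-fold higher, adjusted p = 0.0006632). The peritoneal arrays of Lss disagreed, with 6.09 on array 2 and no level above background on array 1. The next-brightest probe of Lss gave 0.34 for BMDM (adjusted p = 0.2023) and correlated with the brightest at 0.2 over the 7 group means.

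Among sterol genes above background on every array, Nsdhl and Ebp varied least. Nsdhl, a C4 decarboxylating dehydrogenase, spanned 1.66 between group means, with 10.99 in BMDM and 10.65 in alveolar macrophages at the top and 9.35 and 9.32 in adipose macrophages at the bottom. Dhcr7, which makes cholesterol from its last precursor, was 7.68 in BMDM and 6.97 in alveolar macrophages and differed from the other groups in BMDM (at least 2.35-fold, adjusted p = 0.002756). Tm7sf2, a sterol reductase, was also higher in BMDM (at least 2.3-fold, adjusted p = 0.001489). Ebp, a sterol isomerase, spanned 1 and did not follow the other enzymes. Its highest arrays were peritoneal (9.98 and 10.03), above BMDM (9.89), adipose (9.6 and 9.68), alveolar (9.66), intestinal (9.36 and 9.21), splenic (9.29) and Kupffer cells (9). Ebp was higher in peritoneal macrophages (0.54 ± 0.12, adjusted p = 0.00954) and so was Mvd (at least 1.3-fold, adjusted p = 0.01287), while 11 other sterol genes were lower there. Both calls were lost under median scaling, where the differences were 0.6 for Ebp (adjusted p = 0.1213) and 0.48 for Mvd (adjusted p = 0.1975).

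Among sterol genes still above background in the group, Kupffer cells were lower by 2.7-fold for Fdps and 2.66-fold for Msmo1. Sqle, Hsd17b7, Mvd and Lss were not above background in Kupffer cells and were at least 3.43-fold, 3.13-fold, 2.31-fold and 1.32-fold lower. In splenic macrophages Cyp51 was 2.09-fold and Fdps 1.99-fold lower, and Sqle and Lss, not above background there, were at least 3.14-fold and 1.35-fold lower. In peritoneal macrophages Fdps was 2.39-fold lower beside Cyp51 (4.76-fold), Lss, above background on 1 of 2 arrays, was 2.27-fold lower, and Sqle, not above background there, was at least 3.38-fold lower. In adipose macrophages Sqle was 2.89-fold, Fdps 2.39-fold, Mvd 2.29-fold and Cyp51 2.13-fold lower. Adipose Sqle (6.33) was below BMDM, alveolar and intestinal macrophages. It lay above the fitted levels in peritoneal (5.98), Kupffer (5.15) and splenic macrophages (6.15), which are below background. Its fold, like those of adipose Mvd and peritoneal Lss, uses such levels in the reference. Bounds have no order among themselves.

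The control and transport genes were higher in BMDM, 3 of 3 tested, beside 22.8% of all transcripts. Srebf2 was above background on every array, with 9.57 in BMDM, 9.32 and 9.13 in intestinal and 8.72 in alveolar macrophages, against 7.94 and 7.75 in adipose, 7.85 in splenic, 7.05 in Kupffer and 6.82 and 6.96 in peritoneal macrophages. It was higher in BMDM (1.63 ± 0.17, adjusted p = 0.0003538) and intestinal macrophages (1.23 ± 0.13, adjusted p = 0.0003339), and lower in peritoneal macrophages (-1.48 ± 0.13, adjusted p = 0.0001307) and Kupffer cells (-1.3 ± 0.17, adjusted p = 0.001931). The next-brightest Srebf2 probe placed alveolar macrophages highest, and with it the alveolar minus BMDM difference was 0.4 (adjusted p = 0.2817) in place of -0.84 ± 0.23.

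Insig1, which is itself a target of the SREBPs, was above background in BMDM (8.68), in alveolar macrophages (6.93) and on adipose array 2 (6.08) only. BMDM were at least 5.57-fold above the other groups (adjusted p = 0.0004386). Stard4, a cholesterol carrier of the cytosol, had 10.94 in BMDM and 10.12 and 10.32 in intestinal macrophages, against 9.45 in alveolar and 8.01 to 8.69 in the remaining groups. It was higher in BMDM (2.06 ± 0.21) and intestinal macrophages (1.22 ± 0.15, adjusted p = 0.0002738 and 0.0007926). With its next-brightest probe the intestinal difference was -0.23.

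In fatty acid synthesis the first enzymes peaked in peritoneal macrophages. Acaca, acetyl-CoA carboxylase, which commits carbon to fatty acids, had 12.78 and 12.76 on the peritoneal arrays, against 10.15 in BMDM, 9.52 in alveolar, 9.21 in Kupffer, 8.78 and 8.83 in intestinal, 8.74 in splenic and 8.45 and 8.38 in adipose macrophages. The peritoneal arrays did not overlap with any other, and they were 12.4-fold above the other groups (3.63 ± 0.12, adjusted p = 1.093e-06). A dimmer Acaca probe gave a smaller peritoneal difference (0.37, adjusted p = 0.0463), was highest in adipose macrophages and correlated with the brighter probe at 0.15 over the 7 group means. Acly, ATP citrate lyase, which supplies cytosolic acetyl-CoA, had 13.94 and 13.83 in peritoneal macrophages and 13.52 in Kupffer cells, against 11.8 to 12.72 elsewhere. It was higher in peritoneal macrophages (1.39 ± 0.12, adjusted p = 0.0001334) and in Kupffer cells (0.97 ± 0.16, adjusted p = 0.005267), and differed in BMDM by 0.03 ± 0.16, which did not pass.

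Fasn, the synthase that builds palmitate, had 10.2 in BMDM, against 8.81 and 7.97 in peritoneal, 8.27 in Kupffer, 8.23 in alveolar, 7.79 and 7.83 in intestinal, 7.75 in splenic and 6.3 and 6.53 in adipose macrophages. It was 5.26-fold above the other groups in BMDM (2.39 ± 0.29, adjusted p = 0.0006112) and 4.08-fold below them in adipose macrophages (-2.03 ± 0.22, adjusted p = 0.000424). In peritoneal macrophages, where Acaca and Acly peaked, Fasn differed by 0.28 ± 0.22 (adjusted p = 0.3444). Elovl6, which lengthens palmitate, was above background in BMDM (7.99), on both intestinal arrays (7.33 and 7.5) and in alveolar macrophages (6.37), and it was at least 3.04-fold higher in BMDM (adjusted p = 9.602e-05) and at least 1.91-fold higher in intestinal macrophages (adjusted p = 0.0001132).

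**Figure D3:**
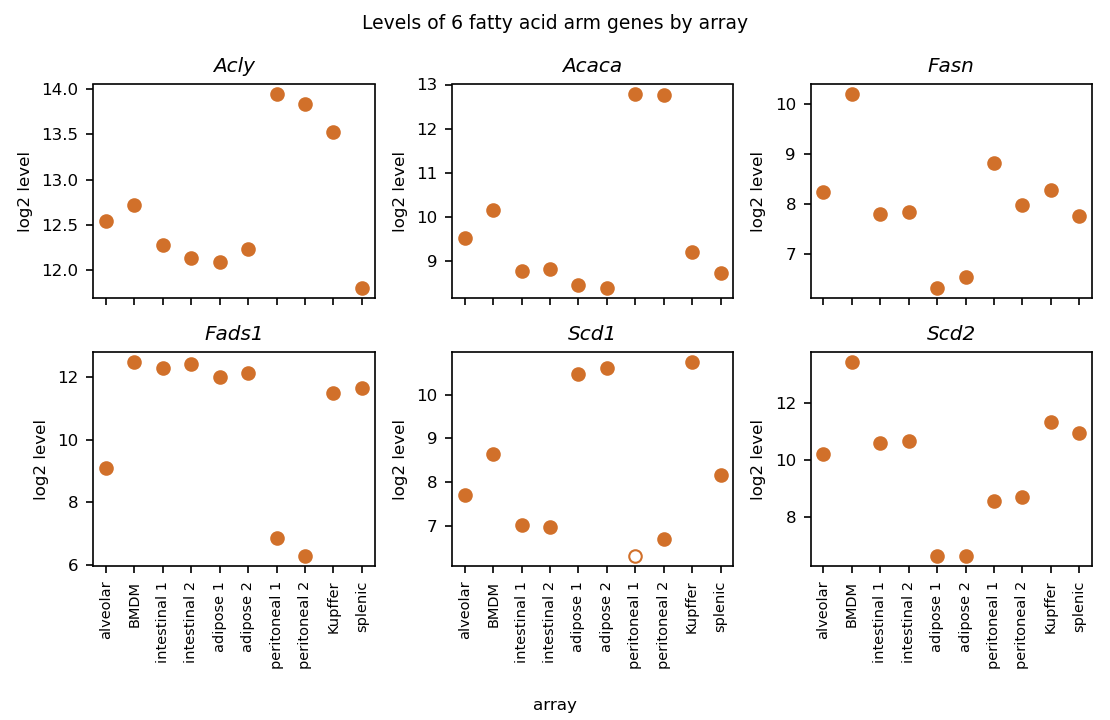
Log2 levels of 6 fatty acid arm genes on the 10 arrays, with open circles where the gene was not above background. Acaca and Acly are highest on the peritoneal arrays, where Fads1 is lowest, and Scd1 and Scd2 run in opposite directions between adipose and intestinal macrophages.

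Among genes above background on every array, Scd2 and Fads1 had the widest ranges of group means, 6.78 and 5.92. Fads1, the delta-5 desaturase of polyunsaturated fatty acids, had 6.87 and 6.27 in peritoneal macrophages and 9.1 in alveolar macrophages, against 11.49 to 12.49 on the 7 other arrays. Peritoneal macrophages were 31.1-fold below the other groups (-4.96 ± 0.18, adjusted p = 1.777e-06) and alveolar macrophages 4.02-fold below (-2.01 ± 0.23, adjusted p = 0.0006708). A dimmer Fads1 probe, above background on 2 arrays, gave -0.39 for peritoneal (adjusted p = 0.1162) and -0.57 for alveolar macrophages (adjusted p = 0.09813). Fads2, the delta-6 desaturase that precedes Fads1, was above background in BMDM alone (7.99, at least 3.66-fold above the other groups), and since it was tested only through that group the difference is a description. Low Fads1 in peritoneal macrophages therefore stood beside high Acaca and Acly on the same arrays.

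Scd1 and Scd2 are stearoyl-CoA desaturases that make oleate, and their groups differed. Scd1 had 10.74 in Kupffer cells and 10.47 and 10.61 in adipose macrophages, against 8.65 in BMDM, 8.17 in splenic, 7.7 in alveolar, 7.03 and 6.99 in intestinal and 6.71 on peritoneal array 2, and it was not above background on peritoneal array 1. It was 6.24-fold above the other groups in Kupffer cells (2.64 ± 0.19, adjusted p = 0.0001237) and 5.31-fold above them in adipose macrophages (2.41 ± 0.15, adjusted p = 3.221e-05). Scd2 had 13.42 in BMDM, 11.33 in Kupffer, 10.95 in splenic, 10.58 and 10.68 in intestinal and 10.2 in alveolar macrophages, against 8.58 and 8.71 in peritoneal and 6.65 and 6.63 in adipose macrophages. It was 12.9-fold above the other groups in BMDM (3.69 ± 0.16, adjusted p = 1.265e-05) and 18.7-fold below them in adipose macrophages (-4.22 ± 0.12, adjusted p = 1.66e-06). Adipose macrophages were thus near the top for Scd1 and lowest for Scd2, and Kupffer cells were high for both.

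Liver and fat cells also express Scd1. On the Kupffer array 4 of 7 hepatocyte markers were above background and their summed authors' intensity was 5950, against 779 to 2003 in the other groups, with Alb, Fgb and Tat not above background. On the adipose arrays 1 of 5 adipocyte markers, Adipoq, was above background (summed intensity 937 to 966, against 554 to 592), with Plin1, Lep, Cidea and Retn not above it. On the alveolar array 4 of 8 lung epithelial markers were above background (4639, against 872 to 965), with Sftpb, Sftpa1, Foxj1 and Epcam not above it. On the adipose arrays 4 and 5 of 7 fibroblast and mesothelium markers were above background (3238 to 3791, against 773 to 1622), with Col1a2 and Col3a1 not above it on either. On the Kupffer array 6 of 6 endothelial markers were above background (13339), and the splenic array had 3 of 6 (14997), against 787 to 5121 in the other groups. On the intestinal arrays 3 of 8 intestinal epithelial markers were above background (1312 to 1387, against 912 to 1046), with Fabp2, Reg3b, Reg3g, Cdx1 and Epcam not above it. The splenic array had the highest erythroid sum, 43178. The part of other cells' RNA in these results was not tested.

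Alveolar macrophages and BMDM, the groups with the most sterol genes called higher, were also set directly against each other. Of 15 sterol genes 9 were lower in alveolar macrophages than in BMDM, 2 were higher and 4 did not pass, with a median difference of -1.17, where 17.3% of all transcripts were lower and 19.1% higher. The lower genes were led by Lss (5.06-fold, -2.34 ± 0.55), Sqle (4.95-fold, -2.31 ± 0.32), Fdps (3.89-fold, -1.96 ± 0.23) and Msmo1 (3.64-fold). Mvk, counted among the 9 but tested mainly through BMDM, was not above background in alveolar macrophages. Its difference, at least 2.9-fold lower, is a description. Over the alternatives the weakest difference was -0.24 for Lss, -2.17 for Sqle, -1.46 for Fdps and -1.83 for Msmo1. Hmgcs1 (0.76 ± 0.23, adjusted p = 0.03659) and Mvd (0.66 ± 0.21, adjusted p = 0.04593) were higher, and both calls were lost under median scaling, and when any array of the intestinal or adipose groups was left out. The difference lay between 0.55 and 0.76 for Hmgcs1 and between 0.16 and 0.66 for Mvd over the alternatives. Of 8 fatty acid genes 7 were lower (median -1.8), led by Fads1 (-3.39 ± 0.31, 10.5-fold), Scd2 (-3.22 ± 0.21, 9.32-fold) and Fasn (-1.97 ± 0.39, 3.92-fold). Fads2, counted among the 7 but tested only through BMDM, was not above background in alveolar macrophages. Its difference, at least 3.15-fold lower, is a description. Acly differed by -0.18 ± 0.22. In the same comparison 7 of 11 cell cycle genes were lower. Against the other groups 8 of 11 were higher in alveolar macrophages and 11 of 11 in BMDM, with medians of 0.84 and 2.3. Of all transcripts 16.3% and 22.8% were higher in these comparisons. The part of cell cycle genes in the sterol result was not tested.

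**Figure D4:**
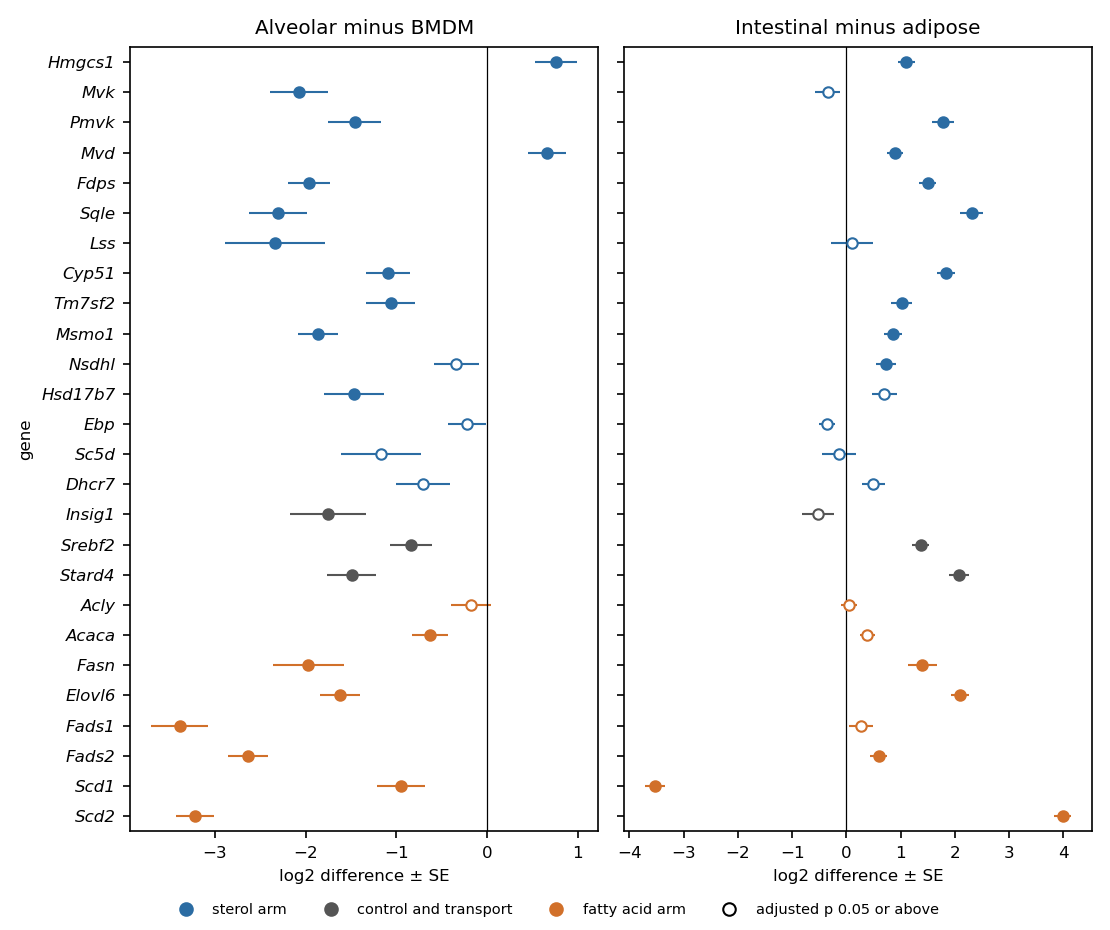
Log2 differences ± SE for the 26 tested genes, alveolar minus BMDM on the left and intestinal minus adipose on the right, with open symbols where the adjusted p was 0.05 or above. Most sterol genes lie left of 0 in the left panel and right of 0 in the right panel, where Scd1 (-3.53) and Scd2 (3.99) lie at opposite ends.

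Intestinal and adipose macrophages each had 2 arrays, in the same array set. Of 15 sterol genes 9 were higher in intestinal macrophages than in adipose macrophages and 6 did not pass, with a median difference of 0.86, where 15.1% of all transcripts were higher and 15.2% lower. They were led by Sqle (2.31 ± 0.22, 4.95-fold), Cyp51 (1.84 ± 0.17, 3.59-fold), Pmvk (1.79 ± 0.2, 3.47-fold) and Fdps (1.5 ± 0.16, 2.83-fold). Over the alternatives the smallest difference was 0.03 for Sqle, 0.24 for Fdps, 0.88 for Cyp51 and 1.23 for Pmvk. Srebf2 (1.37 ± 0.16, adjusted p = 0.0007973) and Stard4 (2.08 ± 0.19, adjusted p = 0.000238) were higher with them, while Insig1 differed by -0.52 ± 0.29 and did not pass. In the fatty acid arm 4 genes were higher, Scd2 (3.99 ± 0.15, 15.9-fold), Elovl6 (at least 2.95-fold), Fasn (1.4 ± 0.27, 2.63-fold) and Fads2, which was not above background on any of the 4 arrays and has no fold. Scd1 was lower (-3.53 ± 0.18, 11.5-fold, adjusted p = 1.384e-05). The intestinal and adipose arrays did not overlap for any gene given here with a fold. These genes were named because they passed with large differences, so the separation follows from that choice and adds no support.

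Across the 7 group means sterol genes moved together and fatty acid genes did not. The median Pearson r was 0.71 over the 105 pairs within the sterol arm (100 above 0), 0.09 over the 28 pairs within the fatty acid arm and 0.31 over the 120 pairs between arms, beside 0 over all transcript pairs. Without BMDM, over 6 group means, the medians were 0.55, 0.13 and -0.02. The sterol genes correlated with Srebf2 at a median r of 0.83, and at 0.78 without BMDM, while the values for Insig1 were 0.76 and 0.3. Points share arrays and normalization, and these values are descriptions without a test.

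By this likeness, Cyp51 (0.89), Fdps and Msmo1 (0.88 each) and Hsd17b7 (0.85) were nearest to the rest of the sterol arm, and Sc5d (0.19) and Ebp (0.41) farthest from it. Among fatty acid genes Elovl6 (0.83) and Fads2 (0.77) had the highest median r with sterol genes, and Scd1 (-0.23), Acly (-0.18) and Acaca (0.02) the lowest. Fads2 was above background in BMDM alone, so its r rests on that group.

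**Figure D5:**
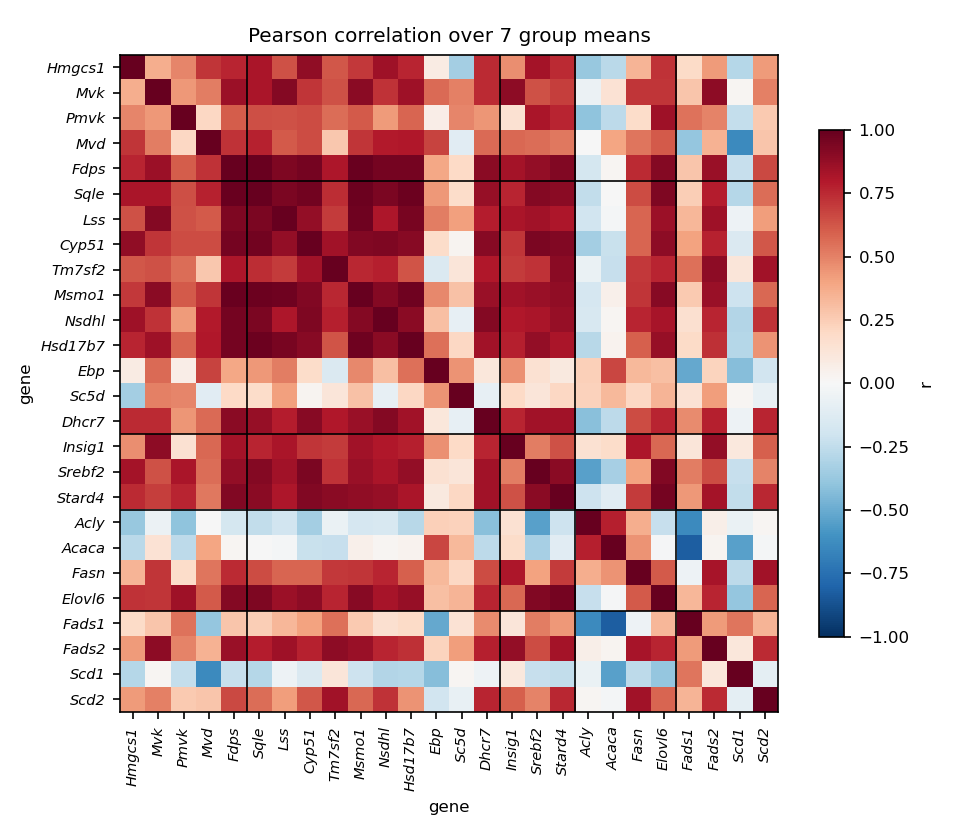
Pearson r over the 7 group means for every pair of tested genes, ordered by segment with lines between segments. The sterol block is red apart from Ebp and Sc5d, and the rows of Acly, Acaca, Fads1 and Scd1 are pale or blue against it.

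Other genes of the same pathways were counted in the same way. Of 7 tested among 12 other sterol and isoprenoid genes, 2 were higher and 2 lower in BMDM, led by Tmem97 (1.63 ± 0.19), a sterol-binding membrane protein, and Erg28 (1.52 ± 0.18), a scaffold of the C4 demethylation enzymes, and in alveolar macrophages also 2 were higher and 2 lower, where Lbr, a sterol reductase of the nuclear envelope, was lower (-2.1 ± 0.17), as was Erg28 (-1.25 ± 0.18). The shares of transcripts were 22.8% higher and 29.7% lower in BMDM, and 16.3% higher and 20% lower in alveolar macrophages. Of 16 tested among 25 other fatty acid genes, 8 were higher and 2 lower in BMDM, among them Hacd1, an acyl-CoA dehydratase (at least 5.69-fold), Aacs (1.93 ± 0.26), acetoacetyl-CoA synthetase, and Mid1ip1 (1.92 ± 0.25), a protein that promotes assembly of acetyl-CoA carboxylase.

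In intestinal macrophages 9 of those 16 were lower and 1 higher, beside 22% and 24.8% of transcripts. In peritoneal macrophages 6 of the 16 were higher and 3 lower, beside 20.9% and 23.6% of transcripts. The 6 include Mlxipl, which passed the detection filter through the peritoneal arrays alone, so that count is a description. Mlxipl, which encodes the carbohydrate-responsive transcription factor ChREBP, had 9.53 and 9.85 on the peritoneal arrays and was not above background on any of the 8 others. The difference was at least 11.8-fold, a description since Mlxipl was tested only through the peritoneal arrays. Elovl5, an elongase of polyunsaturated fatty acids (1.6 ± 0.13), and Mid1ip1 (1.46 ± 0.19) were also higher. The peritoneal arrays also had the highest Acaca and Acly, and a link between these levels was not tested.

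Among 7 tested sterol sensing and processing genes, 5 were higher and 1 lower in splenic macrophages, beside 19.3% and 20.4% of transcripts, and 2 were higher and 1 lower in Kupffer cells, beside 14.4% and 15.3%. Nr1h3, which encodes the sterol receptor LXR alpha, had 13.91 in Kupffer cells and 13.82 in splenic macrophages, against 10.63 in alveolar, 10.72 and 10.56 in intestinal, 9.27 in BMDM, 8.93 and 8.91 in adipose and 7.32 and 7.65 in peritoneal macrophages. It was 13.8-fold above the other groups in Kupffer cells (3.79 ± 0.18) and 13.1-fold below them in peritoneal macrophages (-3.71 ± 0.14, adjusted p = 1.945e-05 and 2.236e-06). Of 4 tested uptake and efflux genes 3 were higher in alveolar macrophages, where 16.3% of transcripts were higher and 20% lower, led by Abcg1, a sterol exporter (2.86 ± 0.16, 7.24-fold). Of 7 acyl-CoA synthetase and glycerolipid genes 4 were higher and 2 lower in alveolar macrophages, among them Dgat2 (at least 12.1-fold) and Dgat1 (5.61-fold), the acyltransferases that finish triglycerides, and Lpin1 (at least 7.75-fold), a phosphatidate phosphatase. Dgat2 was also at least 7.38-fold higher in intestinal macrophages.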

How the data were processed

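RNA of 10 macrophage samples was hybridised to Illumina bead arrays, per the labels. The deposited signal table holds linear intensity and a detection p-value for 46632 probes, per the file headers. The authors' series values are also linear intensity, with a normalization not given in the sources used here.

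The function neqc (limma 3.58.1, R 4.3.3, offset 16) turned the deposited intensity into normalized log2 values, taking background from the detection p-values and then matching quantiles. Testing covered 12838 transcripts (9164 named genes) that passed a detection p of 0.01 somewhere in the study. One limma fit held all groups, with Benjamini-Hochberg adjustment across all transcripts and a threshold of 0.05 (3 residual and 4.02 prior degrees of freedom), and was tested on simulated data. A fold given as "at least" replaces the level of an undetected group by the smallest normalized value that any detected probe had on that array, where this is higher. Per comparison, the 4 largest differences per arm and direction and up to 3 genes per other list were named. The members and lists were chosen with earlier results of these data known, and the motifs too. Symbols came from the platform annotation (29976 probes with 1 symbol, 10 with several, 16646 with none). Alternatives covered normalization, background, filter, probe, array set, replicate block, variance trend and left-out arrays or groups. Figures used matplotlib 3.10.9.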

Additional observations from a re-analysis of the deposited data

How the results depend on the processing

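Of 158 gene calls, 155 kept direction and threshold with the authors' values, 155 without background correction, 153 with the array set as a block, 144 with the replicate block, 105 under median scaling and 103 of 136 with next-brightest probes. Median scaling changed the number of genes higher to 3 in alveolar (9 in the reported analysis), 1 in Kupffer (4), 0 in splenic (2) and 2 in peritoneal macrophages (4), and 0 in alveolar against BMDM (2). Genes lower became 8 in splenic (14), 2 in intestinal (4) and 6 in adipose macrophages (16). It turned Hmgcs1 to 0.16, Msmo1 to 0.18, Nsdhl to 0.13, Dhcr7 to 0.05 and Acly to 0.11 in adipose macrophages and Srebf2 to -0.13 in alveolar macrophages. Taken from the all-transcript medians of that scaling (0.72 and -0.54), these were -0.56, -0.54, -0.6, -0.67, -0.62 and 0.41, a measure chosen after seeing the data. It takes out the shift common to all transcripts and is no independent check. Next-brightest probes gave 1 gene higher in splenic, 5 in intestinal (11), 1 in alveolar against BMDM and 8 in intestinal against adipose macrophages (15). They turned Fdps to -0.17 in alveolar and -0.04 in intestinal, Sqle to -1.07 in intestinal, Lss to 0.39 in Kupffer and 0.24 in peritoneal, Cyp51 to -0.12 in intestinal, Stard4 to 0.58 in splenic and -0.23 in intestinal, Acaca to 0.69 in intestinal and 0.75 in adipose, Fads1 to -0.4 in Kupffer and -0.19 in adipose macrophages, and Srebf2 to 0.4 in alveolar against BMDM. Without BMDM in the mean, 14 genes were higher in alveolar and 5 lower in splenic macrophages, and without the alveolar group 1 was higher in splenic. With no detection filter 9 were lower in splenic. The intensity trend left 1 gene higher in alveolar against BMDM. In intestinal against adipose macrophages 2 genes were lower with the authors' values, without background correction and with the array set block (1). The cause of these changes was not tested.

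Leaving out single arrays gave 2 to 4 genes lower in alveolar, 9 to 19 lower in splenic, 7 to 13 higher and 2 to 7 lower in intestinal, 0 to 2 higher in alveolar against BMDM and 1 to 2 lower in intestinal against adipose macrophages. The arrays behind these were both peritoneal arrays for alveolar and for intestinal against adipose (4 and 2), intestinal array 1 and adipose array 2 for splenic (9 each), either intestinal array for the 7 higher in intestinal, and any intestinal or adipose array for the 0 in alveolar against BMDM. Replicate numbers were shared by the groups in name only (correlations of replicate differences 0.05, -0.14 and -0.09). The replicate block left 0 genes higher in alveolar against BMDM and moved no other count of calls by more than 1.5 times.

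The sterol minus fatty acid arm median moved as follows. In alveolar macrophages (0.93) it was 1.28 with next-brightest probes and 1.18 without BMDM. In BMDM (-0.71) it was -0.09 with the authors' values, -0.1 without background correction, -0.24 with detection on every array of a group, 0.39 with next-brightest probes, -0.36 with the array set block and -0.29 without the alveolar group. In Kupffer cells (-1.56) these were -0.95 with the authors' values and without background correction, -1.28 with offset 50 and with the array set block, -1.22 with no detection filter, -0.98 with next-brightest probes and -1.34 without the alveolar group. In splenic macrophages (0.1) it was -0.07 with the authors' values, -0.1 under median scaling and 0.27 with the array set block. In peritoneal macrophages (-0.16) it was -0.51 with next-brightest probes, 0.02 without the alveolar group and -0.18 to 0.08 with 1 array left out. In intestinal macrophages (0.5) it was 0.28 with the authors' values, 0.29 without background correction, 0.27 with next-brightest probes, 0.23 with the array set block and 0.68 without the alveolar group. In adipose macrophages (0.22) it was 0.01, 0.04, -0.02 and 0.76 with the authors' values, no background correction, next-brightest probes and median scaling, and 0 with the array set block. In alveolar against BMDM (0.62) it was 0.14 with the authors' values, 0.18 without background correction and -0.01 with next-brightest probes. In intestinal against adipose (0.36) it was 0.11, 0.12 and, with 1 array left out, 0.2 to 0.51.

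Genes near background, among them Mvk, Sc5d, Insig1, Elovl6 and Fads2, have bounds rather than levels in most groups, and 4 groups had 1 array each.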
